A study of Homo sapiens with 4 samples.

Results

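Transcripts of 32 genes of glucose uptake, glycolysis, lactate export and pyruvate entry into mitochondria were followed in RNA sequencing libraries. The cells were labelled HepG2, the name of an established human line from a liver tumour. The hepatocyte markers described below were at or near 0, so the label is in doubt. The 32 were chosen by name from the pathway and matched through their Entrez identifiers, and all 32 were found in all 4 libraries, out of 17963 genes listed in at least 1 of them. Cells had been transfected with an empty vector or with a plasmid for FLAG-tagged JFK (the F-box protein gene FBXO42), or had received siRNA, either a control one or one directed at ING5, which encodes a subunit of histone acetyltransferase complexes. Each of these 4 conditions has 1 library, so the vector library is the control of the first pair and the control siRNA library that of the second. No difference below has a replicate check, and no p-value is given. Unless named otherwise, an interval is the exact 95% one (Clopper-Pearson) for a ratio between paired counts. It covers counting error alone, because each condition has 1 library. No molecular identifiers tell copies of a molecule from separate molecules, so it may be too narrow even for counting error. Doses and times after transfection were not stated.

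Glycolysis splits glucose in the cytosol into pyruvate. Glucose enters through transporters of the SLC2A (GLUT) family, is trapped by hexokinases and is committed by phosphofructokinase, whose activator fructose 2,6-bisphosphate is made and removed by the bifunctional PFKFB enzymes. The aldolase to pyruvate kinase steps yield ATP and pyruvate, which lactate dehydrogenase turns into lactate for export by SLC16A carriers, or which the mitochondrial pyruvate carrier delivers to the pyruvate dehydrogenase complex, a complex switched off by the PDK kinases. Many steps have several isoenzymes, and normal hepatocytes rely on liver forms such as the liver pyruvate kinase, while tumour lines mostly use HK2, ALDOA and PKM.

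Depth and labels were read first. Reads assigned to genes came to between 7179580 and 9196980 per library. FBXO42 had 116 counts in vector and 115 with the plasmid (the library labelled JFK), so a higher transcript level was not seen there and the library keeps that name throughout. ING5 had 144 counts under control siRNA and 81 under ING5 siRNA (log2 fold −0.81, interval −1.23 to −0.41). Of 15 hepatocyte marker genes none reached 20 counts in any library; their summed level was 2.17 to 3.51 CPM (counts scaled to the library's total), and ALB, TTR, TF, APOA2, APOH and AMBP had no row in the tables. Of the liver-type genes of the pathway, SLC2A2 (GLUT2) had no row either, PFKFB1 was listed in the siRNA pair alone with at most 1 count, and PKLR, the liver pyruvate kinase gene, had 12 and 5 counts in the vector pair, against 1 and 0 in the siRNA pair. Of the 8 liver-type genes listed, 1 reached 20 counts, the hexokinase HKDC1. It had 231 and 312 counts in the vector pair, and 303 and 406 in the siRNA pair. The hepatocyte markers, unlike HKDC1, were thus at or near 0 in cells labelled HepG2. Fibroblast markers summed to 74.2 to 91.1 CPM, with 4 of 6 at 20 counts or more in each library, leukocyte markers to 1.63 to 17.8 CPM, and endothelial markers to 145 and 164 CPM in the vector pair, against 26.3 and 12.1 CPM in the siRNA pair. CDH5, which makes up most of the latter, had 995 and 1132 counts in the vector pair, then 224 and 87. Erythroid, neural and skeletal muscle markers summed to at most 1.39, 3.81 and 0.279 CPM. In bulk RNA, fewer cells of a type and less RNA per cell cannot be told apart, and the part of these markers in the results was not tested.

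The stretches of 250 bases before the annotated start of 5 of the genes are shown because these genes parted in the siRNA pair. HK2 and ENO2 stood highest among well-counted members, and ENO1 is the most abundant enolase gene here. GAPDH and PGK1 are consecutive steps that differed in opposite directions. They are RefSeq sequences of GRCh38.p14, while the submitters' notes on the tables name GRCh37, and no position from the tables was used. Capitals mark the core letters ACGTG or GCGTG of the hypoxia response element on either strand (CACGT or CACGC when read on the other one). HK2 has 2 annotated starts, with windows at chr2:74833877-74834126 and chr2:74834920-74835169 (plus strand). The others are ENO2 at chr12:6914330-6914579 (plus), ENO1 at chr1:8878687-8878936 (minus), GAPDH at chr12:6535014-6535263 (plus) and PGK1 at chrX:78103998-78104247 (plus).
HK2, first window: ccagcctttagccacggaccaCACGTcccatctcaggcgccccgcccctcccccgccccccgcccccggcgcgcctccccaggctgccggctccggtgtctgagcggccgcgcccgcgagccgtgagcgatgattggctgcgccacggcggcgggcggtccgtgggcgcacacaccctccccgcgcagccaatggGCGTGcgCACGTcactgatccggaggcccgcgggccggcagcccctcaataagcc
HK2, the other window: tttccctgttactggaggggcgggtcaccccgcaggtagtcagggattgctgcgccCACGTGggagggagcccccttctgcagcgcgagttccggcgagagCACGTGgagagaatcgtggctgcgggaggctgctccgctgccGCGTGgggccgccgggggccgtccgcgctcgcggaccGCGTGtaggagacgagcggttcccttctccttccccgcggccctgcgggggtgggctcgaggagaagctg
ENO2: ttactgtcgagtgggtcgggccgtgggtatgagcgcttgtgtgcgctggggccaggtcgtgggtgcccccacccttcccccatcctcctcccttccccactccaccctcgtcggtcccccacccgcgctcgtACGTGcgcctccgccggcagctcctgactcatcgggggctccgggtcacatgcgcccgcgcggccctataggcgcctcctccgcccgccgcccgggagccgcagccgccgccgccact
ENO1: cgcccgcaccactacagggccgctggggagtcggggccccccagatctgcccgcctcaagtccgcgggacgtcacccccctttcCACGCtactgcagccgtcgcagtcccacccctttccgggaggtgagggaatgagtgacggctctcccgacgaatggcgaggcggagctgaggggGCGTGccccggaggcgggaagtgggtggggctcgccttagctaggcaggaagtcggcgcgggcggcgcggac
GAPDH: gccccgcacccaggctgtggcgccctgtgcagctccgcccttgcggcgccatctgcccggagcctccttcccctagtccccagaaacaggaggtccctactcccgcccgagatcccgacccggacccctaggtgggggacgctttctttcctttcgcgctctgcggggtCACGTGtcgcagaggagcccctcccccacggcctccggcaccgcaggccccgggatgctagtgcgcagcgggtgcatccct
PGK1: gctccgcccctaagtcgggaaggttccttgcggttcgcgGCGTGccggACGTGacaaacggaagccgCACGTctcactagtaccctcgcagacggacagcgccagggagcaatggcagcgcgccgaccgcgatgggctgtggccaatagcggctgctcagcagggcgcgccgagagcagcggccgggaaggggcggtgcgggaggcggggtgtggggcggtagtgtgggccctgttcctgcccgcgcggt
These windows hold 3 and 6 matches for HK2, 1 for ENO2, 2 for ENO1, 2 for GAPDH and 3 for PGK1. The palindrome CACGTG, which counts as 2 overlapping matches, occurs in the HK2 window farther downstream and in that of GAPDH. ENO1 and PGK1, which stood lower under ING5 siRNA, carry these letters as well as HK2, ENO2 and GAPDH, which stood higher. Among all 35116 windows of the same length 43.2% hold at least 1 match and 6.34% hold CACGTG. Of the 32 genes 29 have a window, and 54.2% of their 59 windows hold at least 1 match. A match describes letters only and is no evidence of binding.

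Levels per length spanned about 3 orders of magnitude within each library. GAPDH, the oxidising step of glycolysis and a common reference transcript, was the most abundant, with 3406 FPKM in vector, 3736 FPKM in the library labelled JFK, 3286 RPKM under control siRNA and 3798 RPKM under ING5 siRNA. The lowest in vector and the library labelled JFK was SLC2A3, the neuronal-type glucose transporter GLUT3, at 3.06 and 2.82 FPKM; it was also the lowest in both siRNA libraries, at 2.54 and 4.55 RPKM. The median member stood at 53.3, 55.3, 51.4 and 68.7. PKM, the pyruvate kinase of most tissues outside liver, had 1070 and 1190 FPKM in the vector pair, against 1137 and 1115 RPKM in the siRNA pair, where the genes next to GAPDH in order were LDHA and PKM. In the vector pair ALDOA, ENO1 and LDHA followed PKM at 1022, 973 and 901 FPKM in vector, and at 1111, 1086 and 884 FPKM in the other library. Members of mitochondrial entry were far less abundant than GAPDH and PKM: the highest, PDHA1, the catalytic E1 alpha subunit of pyruvate dehydrogenase, had 74.0, 71.9, 124 and 134 in the 4 libraries, and the carrier subunit MPC1 had 22.3, 19.7, 15.0 and 12.1. All 32 together took 1.99% of the reads in vector, 2.15% in the library labelled JFK, 2.13% under control siRNA and 2.17% under ING5 siRNA, which is 1.08 times and 1.02 times the control of the pair.

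**Figure D1:**
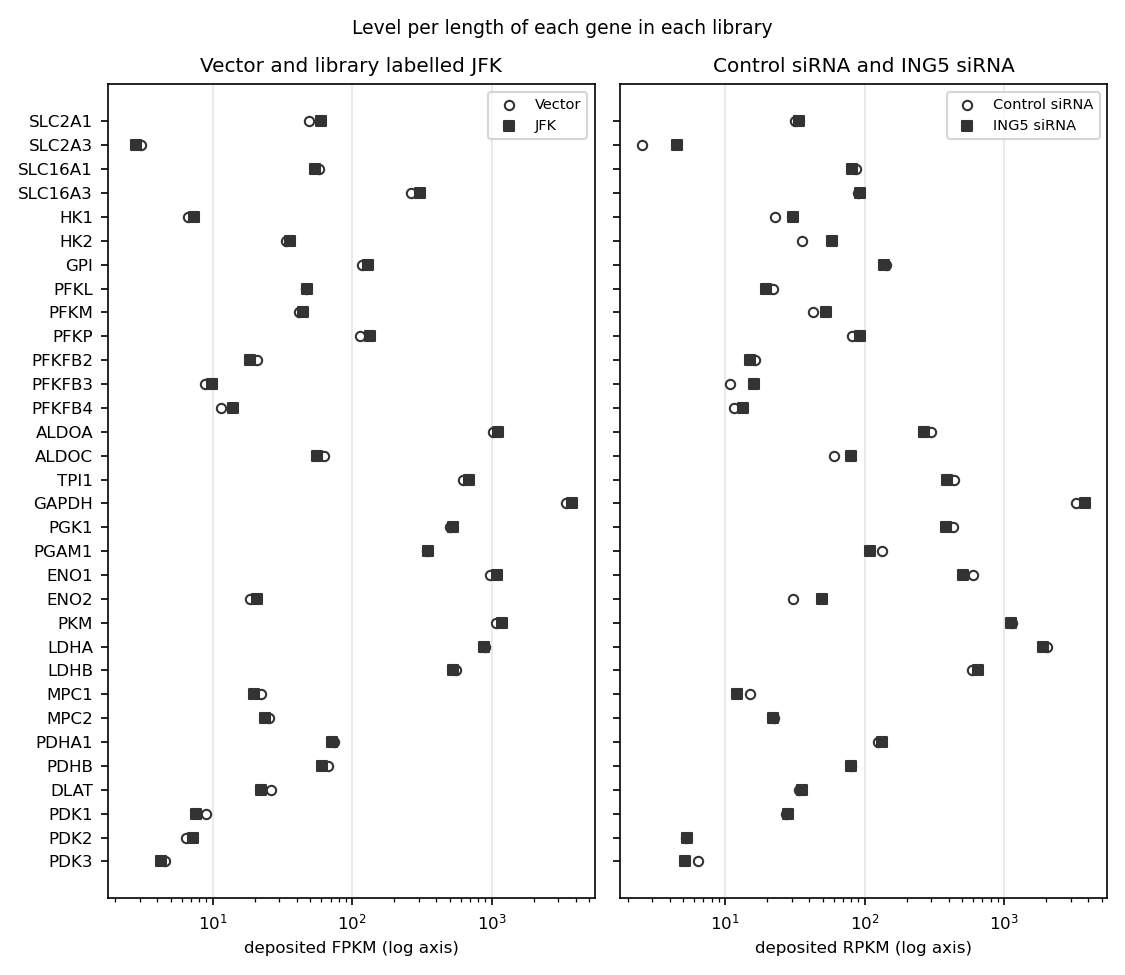
Deposited level per length of each of the 32 genes, FPKM in the vector pair (left) and RPKM in the siRNA pair (right), on a log axis, with open circles for the control and filled squares for the other library of the pair. GAPDH lies highest and SLC2A3 lowest in each library, and most pairs of symbols nearly coincide.

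The library labelled JFK and the vector library make up the first pair, which asks what changes with the JFK plasmid. Most glycolytic enzyme genes from hexokinase to pyruvate kinase were slightly higher, at log2 folds up to 0.26. The 2 lactate dehydrogenase genes lay near 0. The 8 genes of mitochondrial pyruvate entry had a median of −0.07, with 3 above 0 and 5 below. Of these, PDK1, PDK2, PDK3 and MPC1 had too few counts to detect a difference of the size seen in the main enzymes. The median log2 fold of the 32 genes was 0.14, against 0.00 for all 12107 genes measured (a mean of at least 20 normalised counts). Of the 32, 22 lay above 0, where 50.5% of all measured genes did. None of the 32 was 1.5-fold higher or lower, where 1.5% and 2.07% of all measured genes were (0.191% and 0.51% of those with a mean of at least 1000 counts). The interval lay wholly above 0 for 14 of them and wholly below 0 for 1, where 14.3% and 11.2% of all measured genes do so. Intervals narrow with abundance, however, and among the 1570 genes with a mean of at least 1000 counts 40.6% had one wholly above 0 and 16.5% one wholly below, with a median of 0.06. Of the 18 members at that level 13 had an interval above 0 and none below, with a median of 0.16. The 14 less abundant members had a median of −0.06, with 1 interval on each side of 0. Abundant genes as a whole thus lay above 0 in this pair, and so did short ones: the median of all measured genes was 0.07 under 2000 bases, 0.01 from 2000 to 4000 and −0.05 from 4000 bases on, against 0.02, 0.20 and 0.12 for the members. The part of abundance and of length in the members' values was not tested.

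Of the 4 transporters, 2 stood higher beyond counting error. SLC2A1, the widespread glucose transporter GLUT1, had 1314 counts in vector against 1623 in the library labelled JFK (log2 fold 0.33, interval 0.22 to 0.44). SLC16A3, the lactate exporter MCT4, had 3920 and 4623 (0.26, 0.20 to 0.32). SLC16A1, the monocarboxylate carrier MCT1, had 1632 and 1563 (−0.04, −0.14 to 0.06), and SLC2A3 had 87.1 and 81.3 expected counts (−0.07). The ratio of SLC16A3 to SLC16A1 reads was higher by 0.30 on the log2 scale (approximate counting interval 0.18 to 0.42), while the interval for SLC2A3 to SLC2A1 holds 0 (−0.41, −0.86 to 0.04).

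All 6 genes from hexokinase to phosphofructokinase lay above 0, 4 of them with an interval above 0. PFKP, the platelet-type phosphofructokinase and the most abundant of its family here, had 2193 counts in vector against 2589 in the library labelled JFK (0.26, 0.18 to 0.35). GPI, which turns glucose 6-phosphate into fructose 6-phosphate, had 3566 and 3991 expected counts (0.19, 0.12 to 0.25). HK2 stood at 0.15 (0.06 to 0.25) and the muscle-type PFKM at 0.17 (0.04 to 0.29), while HK1 (0.20, −0.11 to 0.50) and the liver-type PFKL (0.05, −0.08 to 0.18) had intervals that hold 0. Of the regulators, PFKFB4 had 291 and 361 counts (0.33, 0.11 to 0.56), PFKFB3 279 and 312 (0.19, −0.05 to 0.42) and PFKFB2, the heart-type enzyme, 1044 and 940 (−0.13, −0.26 to 0.00).

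From aldolase to pyruvate kinase, 7 of 9 genes had an interval above 0 and their values were close together. ENO1, the main enolase, had 15423 and 17444 expected counts (0.20, 0.17 to 0.23), PKM 19395 and 21858 (0.20, 0.17 to 0.22) and GAPDH 33956 and 37751 (0.18, 0.16 to 0.20). TPI1, ALDOA, PGK1 and PGAM1 lay at 0.17, 0.16, 0.12 and 0.08; under total-count scaling the interval of PGAM1 holds 0. The brain-type isoenzyme genes did not separate from 0 by counting error: ALDOC had 743 and 679 counts (−0.11, −0.26 to 0.05) and ENO2 325 and 369 expected counts (0.21, −0.01 to 0.43). At the branch point the 2 lactate dehydrogenase genes lay near 0. LDHA had 14407 and 14329 counts (0.02, −0.02 to 0.05, but −0.02 under total-count scaling). LDHB had 5186 and 4988 (−0.03, −0.09 to 0.02), with an interval below 0 in 2 of 6 settings of scaling, added count and unit. The ratio of LDHA to PKM reads was accordingly 0.743 in vector against 0.656 in the library labelled JFK, a log2 change of −0.18 (approximate counting interval −0.22 to −0.14) that does not depend on the scaling of the libraries.

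Pyruvate entry had a median of −0.07, with 1 of 8 intervals on one side of 0. DLAT, the E2 core subunit of the pyruvate dehydrogenase complex, had 823 counts in vector against 714 in the library labelled JFK (−0.18, −0.33 to −0.03). The E1 subunits PDHA1 and PDHB lay at 0.00 and −0.10, the carrier subunits MPC1 and MPC2 at −0.12 and −0.04, and the inhibitory kinases PDK1, PDK2 and PDK3 at −0.19, 0.24 and 0.12. For PDK3 the unit decides the sign: it had 148 and 159 expected counts, but 4.57 and 4.28 FPKM. This was the only member whose count and FPKM were more than 5% apart, in vector.

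**Figure D2:**
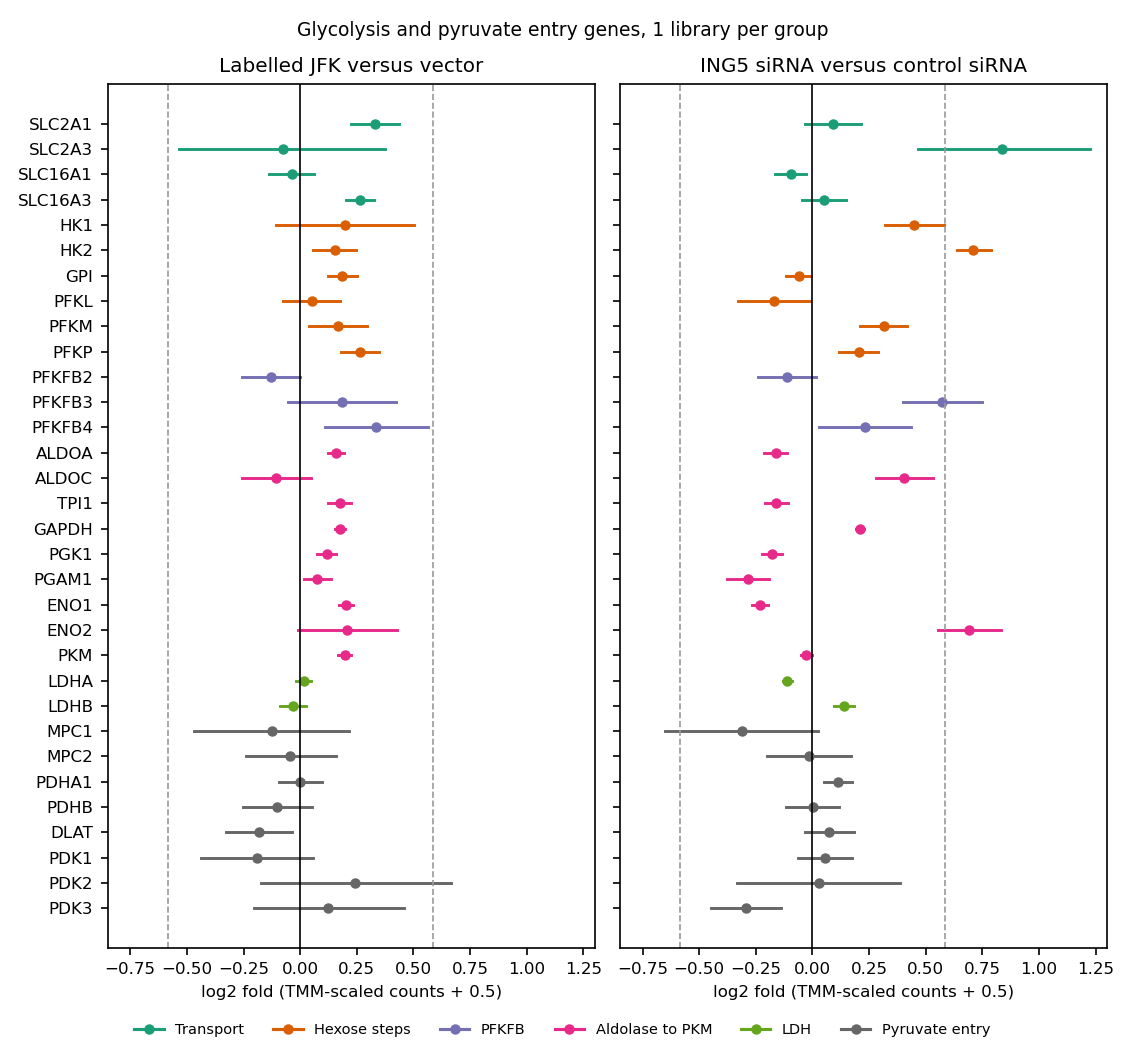
Log2 fold of each gene (points) with its exact 95% counting interval (lines) for the library labelled JFK against vector (left) and for ING5 siRNA against control siRNA (right); colours give the step of the pathway and dashed lines mark 1.5-fold. On the left all points lie between −0.19 and 0.33, and on the right SLC2A3, HK2 and ENO2 lie beyond the upper dashed line.

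The siRNA pair asks which transcripts differ with the siRNA against ING5. Here the pathway divided: most genes of glucose phosphorylation and its regulation, and ALDOC, ENO2 and LDHB, stood higher, and most of the abundant enzymes of the lower pathway stood slightly lower. The median of the 32 was 0.04, against −0.01 for all 11634 measured genes. Of the 32, 18 lay above 0, where 48.6% of all measured genes did. At least 1.5-fold higher were 3, where 4.01% of all measured genes were, and none was 1.5-fold lower, where 4.4% were. The interval lay above 0 for 12 and below 0 for 11, where 18.3% and 20.6% of all measured genes do so; among the 22 members with a mean of at least 1000 counts it did so for 7 and 9, where 31.7% and 32.7% of the 2227 genes at that level do. The counts in each direction were therefore not far from those of other abundant genes, and the division by step and isoform is given gene by gene.

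The 3 genes beyond 1.5-fold were SLC2A3, HK2 and ENO2. SLC2A3 had 92 counts under control siRNA and 163 under ING5 siRNA (log2 fold 0.84, interval 0.46 to 1.23); reads of its near-identical copy SLC2A14, with 1 and 0 counts there, may not be told from its own. HK2, the inducible hexokinase bound to the outer mitochondrial membrane, had 2320 and 3755 (0.71, 0.64 to 0.79), and ENO2, the neuronal enolase, had 682 and 1089 (0.69, 0.55 to 0.83). PFKFB3, the PFKFB isoform with the highest kinase relative to phosphatase activity, lay just under the threshold at 456 and 671 (0.57, 0.40 to 0.75); under upper-quartile scaling it lay at 0.59 and past the threshold. HK2 was the only member with a mean of at least 1000 counts beyond 1.5-fold; at that level 0.988% of all genes were 1.5-fold higher and 2.83% lower.

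Other genes at the entry to the pathway also stood higher. HK1, the housekeeping hexokinase, had 828 counts under control siRNA and 1118 under ING5 siRNA (0.45, 0.32 to 0.58). PFKM had 1391 and 1711 (0.31, 0.21 to 0.42) and PFKP 2070 and 2357 (0.20, 0.12 to 0.29), while PFKL had 691 and 608 (−0.17, −0.33 to −0.01). PFKFB4 lay at 0.23 (0.03 to 0.44) and PFKFB2 at −0.11 (−0.24 to 0.01). GPI, between the kinases, had 5646 and 5352 (−0.06, −0.12 to −0.01). The intervals of PFKL and GPI hold 0 under total-count and upper-quartile scaling. Of the transporters, SLC2A1 had 1074 and 1131 (0.09, −0.03 to 0.21), SLC16A3 1729 and 1771 (0.05, −0.05 to 0.15) and SLC16A1 3506 and 3242 (−0.10, −0.17 to −0.03). Among the phosphofructokinases the ratio of PFKM to PFKL reads was higher than under control siRNA (log2 difference 0.48, approximate counting interval 0.30 to 0.67).

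In the lower pathway 6 of 9 genes from aldolase to pyruvate kinase had an interval below 0. PGAM1, phosphoglycerate mutase, had 2172 counts under control siRNA and 1764 under ING5 siRNA (−0.28, −0.38 to −0.19). ENO1 had 14039 and 11831 (−0.23, −0.27 to −0.20), and PGK1, the first ATP-yielding step, had 9693 and 8469 (−0.18, −0.22 to −0.14). ALDOA and TPI1 both lay at −0.16, with 6614 and 5847 counts and 6412 and 5679 counts. PKM, at 29849 and 28959, lay at −0.03, and its interval holds 0 under total-count and upper-quartile scaling. GAPDH went the other way, from 43083 to 49284 (0.21, 0.19 to 0.23), as did ALDOC, the brain-type aldolase, from 920 to 1205 (0.41, 0.28 to 0.53). GAPDH therefore parted from its neighbours in the pathway: the ratio of GAPDH to PGK1 reads was 4.44 under control siRNA and 5.82 under ING5 siRNA, 1.31 times as high (log2 0.39, approximate counting interval 0.34 to 0.43), and that of GAPDH to TPI1 reads was 1.29 times as high. In the vector pair the log2 changes of the same ratios were 0.06 and 0.00.

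The 2 lactate dehydrogenase genes also parted. LDHA, the form that favours lactate, had 43642 counts under control siRNA and 39952 under ING5 siRNA (−0.11, −0.13 to −0.09), and LDHB, the heart form, had 8340 and 9076 (0.14, 0.10 to 0.18). In pyruvate entry PDHA1 had 3996 and 4270 (0.11, 0.05 to 0.17) and PDK3 751 and 606 (−0.29, −0.45 to −0.14). The remaining 6 had intervals that hold 0: PDHB at 0.00, DLAT at 0.08, PDK1 at 0.06, PDK2 at 0.03, MPC2 at −0.02 and MPC1 at −0.31, the last with 167 and 133 counts.

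**Figure D3:**
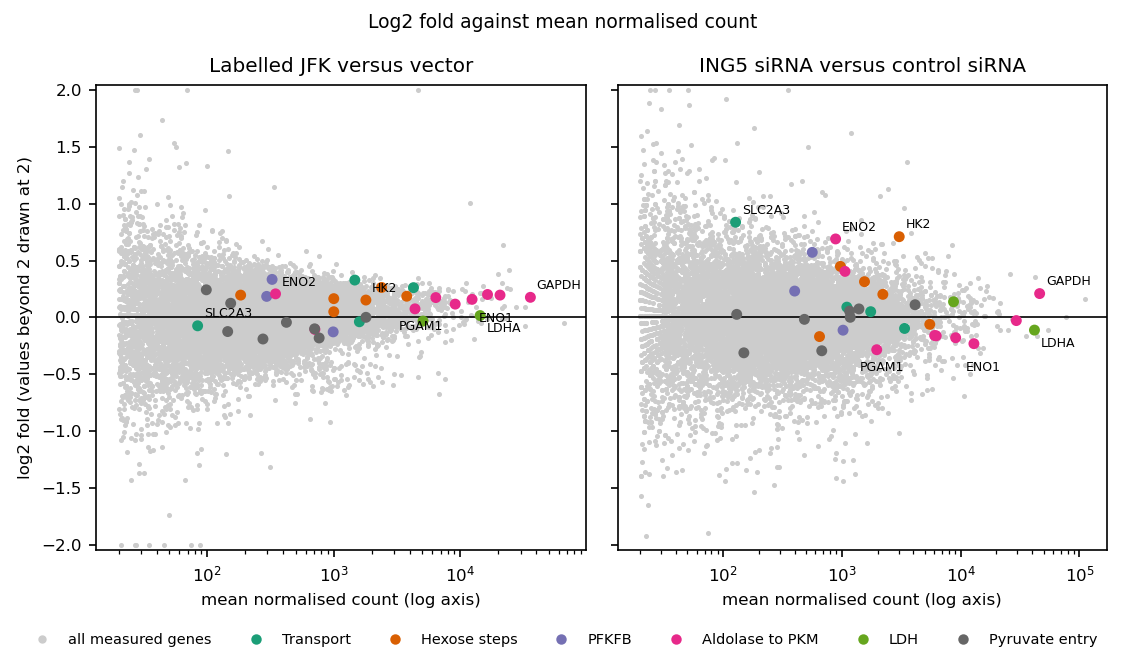
Log2 fold against mean normalised count (log axis) for all measured genes (grey) and the 32 pathway genes (coloured by step), for the library labelled JFK against vector (left) and ING5 siRNA against control siRNA (right). On the left 16 of the 18 pathway genes with a mean of at least 1000 counts lie above 0. On the right 22 pathway genes reach that level, 12 above 0 and 10 below, with HK2 at 0.71.

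Isoform shares were read within each library, where the scaling between libraries has no part. ENO2 took 4.63% of the reads of ENO1 and ENO2 under control siRNA (exact Clopper-Pearson binomial interval 4.30% to 4.98%). Under ING5 siRNA it took 8.43% (7.96% to 8.92%), against 2.06% and 2.07% in vector and the library labelled JFK. ENO3, left out of these shares, had 562 and 611 counts in the vector pair, more than ENO2 there, and 195 and 195 in the siRNA pair. ALDOC took 12.2% of the reads of ALDOA and ALDOC under control siRNA and 17.1% under ING5 siRNA, against 5.91% and 4.97% in the vector pair. Of these 2 isoform pairs the less abundant gene took a larger share under ING5 siRNA. Its ratio to the more abundant one was 1.89 and 1.48 times that of control siRNA.

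LDHB took 16.0% of the reads of LDHA and LDHB under control siRNA and 18.5% under ING5 siRNA. In vector and the library labelled JFK it took 26.5% and 25.8%. HK2 took 73.7% and 77.1% of the reads of HK1 and HK2 in the siRNA pair, and 90.8% and 90.6% in the vector pair. PFKL, the liver-type phosphofructokinase, took 16.6% and 13.0% in the siRNA pair and 24.0% and 21.7% in the vector pair. PFKFB2 took 56.4% and 47.0% of PFKFB reads in the siRNA pair and 64.7% and 58.3% in the vector pair. The PFKFB2 share was thus below that of the control in both pairs, and that of PFKL too, although its intervals overlap in the vector pair. The intervals of the ENO2 and HK2 shares were apart in the siRNA pair and overlapped in the vector pair. Among carriers, SLC16A3 took 70.6% and 74.7% of the reads of SLC16A1 and SLC16A3 in the vector pair, against 33.0% and 35.3% in the siRNA pair. Per length it took 82.2% of their FPKM in vector, and 50.7% and 53.3% of their RPKM in the siRNA pair, so on that scale it was the larger of both there too.

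**Figure D4:**
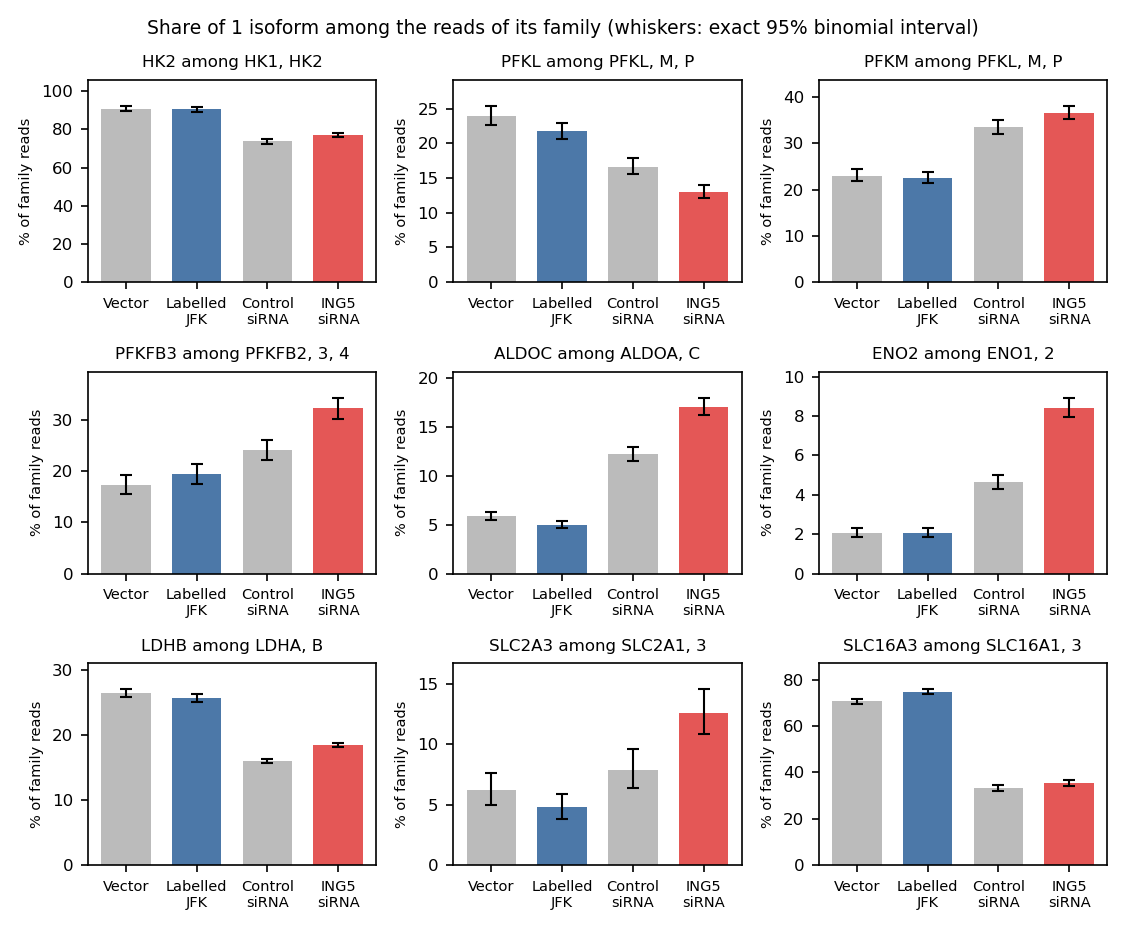
Share of 1 isoform among the reads of the isoforms named above each panel, in each of the 4 libraries (bars from 0, in percent). Whiskers are exact 95% binomial intervals. ENO2 and ALDOC are higher under ING5 siRNA than under control siRNA, at 8.43% against 4.63% and 17.1% against 12.2%.

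The pairs were then set side by side; their controls are separate libraries. Of the 32 genes 12 lay above 0 in both and 4 below 0 in both, 10 lay above 0 in the library labelled JFK and below 0 under ING5 siRNA, and 6 the reverse. The shares of all genes in these classes of sign were not taken, so the counts have no background. Within each pair, 50.5% (vector pair) and 48.6% (siRNA pair) of all measured genes lay above 0. With intervals wholly on one side, 5 of the 32 were higher in both (GAPDH, HK2, PFKM, PFKP and PFKFB4), where 2.84% of the 11148 genes measured in both pairs were. None was lower in both, where 3.94% were. Higher in the library labelled JFK and lower under ING5 siRNA were 7, namely GPI, ALDOA, TPI1, PGK1, PGAM1, ENO1 and PKM, where 3.61% of all were. Among the 1202 genes with a mean of at least 1000 counts in both pairs these shares were 9.9%, 10.1% and 12.4%, against 4, 0 and 7 of the 17 members at that level. In all 6 settings of scaling, added count and unit, 4 of the 7 kept both intervals on their side of 0 (ALDOA, TPI1, PGK1 and ENO1), and 4 of the 5 did (all but PFKM); GPI, PKM and PGAM1 did not under total-count scaling.

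The difference of the log2 folds (ING5 siRNA pair minus vector pair, with an approximate 95% counting interval) lay above 0 for 8 of the 32 genes and below 0 for 12, where 15.3% and 17.8% of the 11148 genes measured in both pairs did so. These intervals too narrow with abundance, and no share among abundant genes alone was taken here. A mean of at least 1000 counts in both pairs was reached by 17 of the 32 genes, against 1202 of the 11148. The largest differences were SLC2A3 (0.91, 0.34 to 1.48), HK2 (0.56, 0.44 to 0.68), ALDOC (0.51, 0.32 to 0.71) and ENO2 (0.48, 0.23 to 0.74) on the higher side. On the lower side were ENO1 (−0.43, −0.48 to −0.39), PDK3 (−0.42, −0.78 to −0.06) and PGAM1 (−0.36, −0.47 to −0.25). With 1 library per group the difference itself cannot be tested.

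**Figure D5:**
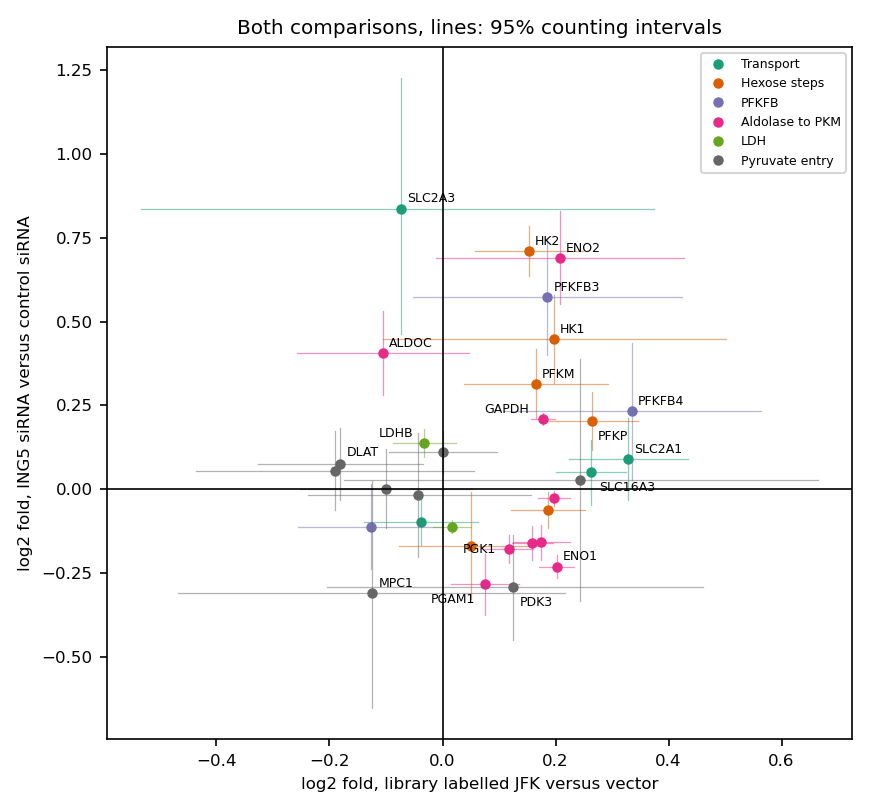
Log2 fold of each gene in the library labelled JFK against vector (horizontal axis) and under ING5 siRNA against control siRNA (vertical axis), with 95% counting intervals as thin lines and colours for the step of the pathway. ENO1, PGK1 and PGAM1 lie right of and below 0, and HK2, ENO2 and PFKFB3 lie right of and above 0.

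Levels in the 2 controls are set side by side only, because the tables were made separately and list different gene lengths. As a share of reads, LDHA had 2007 CPM in vector and 4745 CPM under control siRNA, HK1 24.1 and 90.0, PDK1 41.4 and 125, and PDK3 20.6 and 81.7. SLC16A3 had 546 and 188 CPM, ALDOA 1647 and 719 and PGAM1 601 and 236, while GAPDH had 4730 and 4684. In total 7 members were 1.5-fold or more above vector under control siRNA and 5 were as far below it, where 24% and 33.4% of 12021 genes were. The listed length of PDK3 is 5051 bases in the vector pair, against 12795 in the siRNA pair, and that of ALDOA 1616 and 2408. Differences between the controls and between the ways the tables were made cannot be told apart.

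Genes around the pathway were read from further lists, whose counts of intervals above and below 0 stand against 14.3% and 11.2% of all measured genes in the vector pair and 18.3% and 20.6% in the siRNA pair. Of 23 other isoforms and carrier partners 11 were measured in the vector pair (2 intervals above 0 and 1 below) and 12 in the other (3 above and none below). SLC16A7, the pyruvate carrier MCT2, had 122 and 71.8 expected counts in vector and the library labelled JFK (−0.74, −1.18 to −0.30), and it was the 1 gene of this list at least 1.5-fold lower there; it had 481 and 484 in the siRNA pair. Under ING5 siRNA the 2 genes at least 1.5-fold higher were SLC2A4, the insulin-regulated transporter GLUT4, with 14 counts under control siRNA and 41 (1.53, 0.66 to 2.56), and LDHD, the D-lactate dehydrogenase, with 30 and 49 (0.71, 0.04 to 1.43). HKDC1, a hexokinase from the separate list of liver-type genes, was higher than the control in both pairs. Its counts were 231 and 312 in the vector pair (0.46, 0.21 to 0.71). In the siRNA pair they were 303 and 406 (0.44, 0.22 to 0.66).

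Of 7 measured partners of pyruvate dehydrogenase, none had an interval on one side of 0 in the vector pair, and 3 were above and 1 below in the siRNA pair. PDP1, the phosphatase that switches the complex on, had 393 and 573 counts there (0.56, 0.37 to 0.75), and PDHX, its E3-binding subunit, lay at 0.42. PC, pyruvate carboxylase, which feeds pyruvate into oxaloacetate, was the lower one, with 1024 and 680 counts (−0.57, −0.72 to −0.43). These 3 were chosen after their values were seen. Of 16 genes of the tricarboxylic acid cycle 4 lay above and 1 below in the vector pair, and 1 above and 4 below in the siRNA pair, with no gene 1.5-fold apart in either. Of 7 pentose phosphate genes 3 lay above 0 in the vector pair (TKT at 0.22 and PGD at 0.23 among them, named after their values were seen) and 1 in the siRNA pair, with none below. Of 16 measured genes of glycogen and hexose side branches 4 lay above and 4 below in the vector pair, and 3 above and 3 below in the siRNA pair. Of 6 genes of the NADH shuttles 2 lay above and none below in the vector pair, and 1 above and 2 below under ING5 siRNA. AKR1B1, the aldose reductase gene, chosen after its values were seen, was lower in both, with 7921 and 5545 counts (−0.49) and with 14154 and 9908 (−0.50); its count in the ING5 siRNA library is 1.06 times that implied by its RPKM.

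Of 18 transcription factors and sensors linked to glycolysis 3 lay above 0 and 3 below in the vector pair, and of the 17 measured in the siRNA pair 5 lay above and 4 below. HIF1A, the oxygen-regulated subunit of hypoxia-inducible factor, had 1945 counts in vector against 1866 in the library labelled JFK (−0.04, −0.13 to 0.06), and 6658 under control siRNA and 10224 under ING5 siRNA (0.63, 0.59 to 0.68). PPARGC1A, a coactivator of mitochondrial genes, had 164 and 167 counts in the vector pair, against 328 and 188 in the siRNA pair (−0.79, −1.05 to −0.52). EGLN1, the main oxygen-sensing hydroxylase, chosen after its values were seen, had 1442 and 1047 in the siRNA pair (−0.45, −0.56 to −0.33). EGLN3, of the same gene family and also chosen later, went the other way, with 1178 counts under control siRNA and 1647 under ING5 siRNA. In the vector pair EGLN3 had 249 and 312 counts. MLXIPL, the glucose-responsive factor ChREBP, had 28 and 17 counts in the vector pair (−0.68, −1.66 to 0.22) and 15 and 14 in the siRNA pair, the latter under the minimum of 20. TXNIP, a glucose-induced brake on glucose uptake named after its values were seen, lay at −0.13 and −0.15.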

How the data were processed

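RNA from 4 libraries, 1 per condition, was sequenced on an Illumina HiSeq, per the labels' protocols. The submitters' processing notes name STAR, fastp, FastQC and DESeq2 and the builds GRCh37 and hg19; their versions and roles and the read counter were not stated. The vector pair holds deposited expected counts, not all whole (68.6% and 69.0% are), and FPKM, per the file headers; the siRNA pair holds deposited counts, all whole, and RPKM, per the file headers. Entrez identifiers were matched to symbols through RefSeq (GRCh38.p14). NADK2 and SMG1P3, listed more than once, were left out of the siRNA pair. The 1 blank count in the library labelled JFK was dropped from that pair.

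Counts of the whole table were scaled with TMM (log-ratio trim 0.3, intensity trim 0.05), 0.5 was added and log2 ratios were taken, using scipy 1.17.1, pandas 2.3.3 and numpy 2.4.6 under Python 3.11.15 (figures: matplotlib 3.10.9). With 1 library per group no count test was run. Expected counts were rounded for intervals. A count of 0 allows up to 3 reads, 0.326 to 0.418 CPM. Intervals of ratios of ratios and of differences between pairs use the normal approximation. The code was tested on simulated data. All 32 members passed the filter of a mean of 20. Named genes are the members, the genes of other lists at least 1.5-fold apart (up to 3 each way), liver-type genes (some are not reported here), markers (by list), the targeted genes, and those said to be chosen later. Members and lists were chosen with earlier results of these data known. Counting may divide reads: 11 members, among them HK2, GPI, TPI1, PGAM1 and ENO1, have counts that are not whole, and TPI1 and PGAM1 have processed copies in the tables.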

Additional observations from a re-analysis of the deposited data

How the results depend on the processing

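Alternatives were median-of-ratios, total-count and upper-quartile scaling, 5 added in place of 0.5, no filter or a mean of 100, and the deposited FPKM or RPKM. Members whose count and FPKM or RPKM disagree were also left out. Across these the median log2 fold of the members ran from 0.09 to 0.15 in the vector pair and from 0.02 to 0.06 in the siRNA pair. The median of all measured genes moved too. In the vector pair it was 0.00 in the report, −0.03 with total-count scaling and −0.04 by FPKM. In the siRNA pair it was −0.01 in the report, −0.03 with median-of-ratios scaling and 0.01 with upper-quartile scaling. No member whose interval lies on one side of 0 changed sign. In the vector pair LDHA was −0.02 with total-count scaling and −0.03 by FPKM. Members with an interval below 0 in the vector pair, 1 in the report, were 2 with median-of-ratios scaling, 3 with total-count scaling and 3 by FPKM. Over the 6 settings of scaling, added count and unit, DLAT had such an interval in all 6, PFKFB2 in 3 and LDHB in 2. The cause was not tested. The interval of PGAM1 in the vector pair holds 0 with total-count scaling and by FPKM, that of PFKM by FPKM, and those of GPI, PFKL and PKM in the siRNA pair hold 0 with total-count and upper-quartile scaling. In the siRNA pair 4 members were at least 1.5-fold higher with upper-quartile scaling, against 3. Chosen after seeing the data, leaving out the 11 members with counts that are not whole left 9 of 21 with an interval above 0 in the vector pair. Keeping members with a mean of at least 1000 left 0 with an interval below 0 there, and in the siRNA pair 1 at least 1.5-fold higher and 7 with an interval above 0; these keep fewer genes. Depth limits the genes with few reads. In the vector pair a difference of the size seen in the main enzymes was not detectable for several members. Among them were SLC2A3, PDK1, PDK2, PDK3, MPC1, HK1, ENO2 and PFKFB3. No replicate could be left out, and no paired analysis was possible because each group has 1 library.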
